A study of Mus musculus and Homo sapiens with 10 samples.

Results

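The RHOX genes of human embryonic stem (ES) cells are the 3 genes RHOXF1, RHOXF2 and RHOXF2B. They were taken by symbol from the 22060 gene symbols of the human expression table, and each had 1 entry there: NM_139282 (ENSG00000101883) for RHOXF1, NM_032498 (ENSG00000131721) for RHOXF2 and NM_001099685 (ENSG00000203989) for RHOXF2B. The genes were chosen by family name and selected on their RPKM values in these same 2 libraries, so their levels and differences are given as a description, with no test. RNA was sequenced from the human ES cell line H1 at passage 69, in cells transduced with a lentivirus (LV) carrying either an empty hairpin vector (LV sh-empty, the control) or hairpins against the DNA methyltransferases (LV sh-DNMTs, the knockdown). Both groups thus carried a lentiviral vector, and the labels give no time after transduction for these cells. Each group had 1 library, so every interval here covers counting error only, and differences between cultures were not measured. The other 8 samples of the series are mouse ES cells.

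RHOX genes (reproductive homeobox on the X chromosome) encode transcription factors with a homeodomain of the paired-like (PRD) class. They are known for expression in the germ line, the placenta and the somatic cells of the reproductive tract, and the mouse cluster is a textbook case of genes kept silent by DNA methylation in other tissues. RHOXF2 and RHOXF2B are near-identical copies of one another, whereas RHOXF1 is more distant in sequence. DNA methylation is written by the de novo enzymes DNMT3A and DNMT3B and copied at replication by DNMT1. The RHOX genes lie in band Xq24 of the X chromosome. Their coordinates and sequences are not given here.

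The control library held 100921087 reads and the knockdown library 92478094, as worked out from the deposited RPKM values (read densities, scaled to the length of the entry and to the library total). DNMT1 was read at 24.5 RPKM in control cells against 6.95 after knockdown, DNMT3B at 181 and 75.9, and DNMT3A at 17.9 and 12.2. The cofactor DNMT3L was near the limit of detection in both, with 10 and 7 reads. The ES cell label was matched by the pluripotency factors POU5F1 (921 RPKM in control and 893 in knockdown cells), SOX2 (107 and 66.4) and NANOG (17.3 and 32.6), which do not tell one ES cell line from another. Genes were kept for comparison where their RPKM averaged 0.5 or more over both libraries. Over the 13043 genes kept, the median log2 difference between the libraries was 0.01, so the scaling itself moved little.

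All 3 RHOX genes were near silent in the control and higher in the DNMT knockdown, RHOXF2 and RHOXF2B by far more than RHOXF1. RHOXF2 had a control level of 0.107 RPKM (95% Poisson interval 0.0585 to 0.179, from 14 reads) and a knockdown level of 18.5 RPKM (17.8 to 19.3, from 2223 reads). The ratio of the RPKM values was 173, with an exact counting interval of 103 to 317. RHOXF2B had a control level of 0.121 RPKM (0.0692 to 0.197, from 16 reads) and a knockdown level of 18.4 RPKM (17.7 to 19.2, from 2229 reads), a ratio of 152 (93.4 to 266). In both copies the knockdown level lay far above the upper end of the control interval.

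RHOXF1 had a control level of 0.144 RPKM (0.0721 to 0.258, from 11 reads) and a knockdown level of 1.95 RPKM (1.63 to 2.30, from 136 reads). Its ratio was 13.5, with an interval of 7.31 to 27.7. That interval does not overlap those of RHOXF2 and RHOXF2B. The intervals of RHOXF1 itself do not overlap between the libraries either. The read numbers rest on entry lengths of 755 bp for RHOXF1, 1297 bp for RHOXF2 and 1309 bp for RHOXF2B, the shortest that give whole reads in both libraries.

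**Figure D1:**
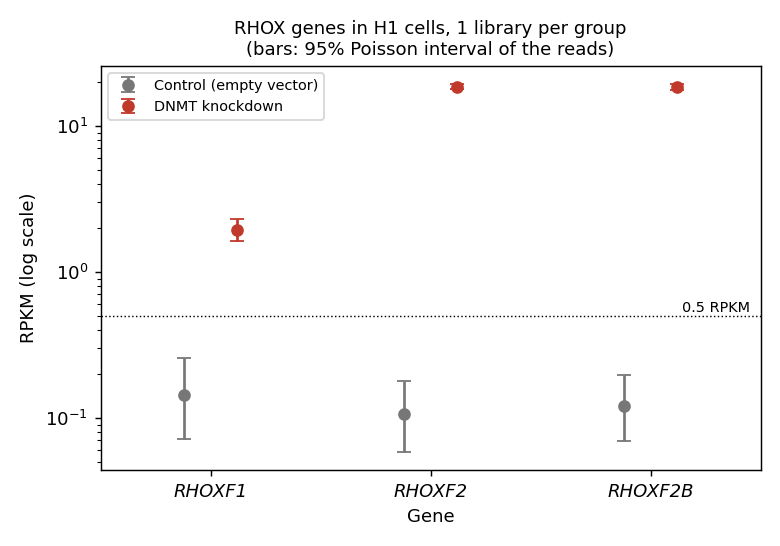
RPKM (log axis) of each RHOX gene in the control and DNMT knockdown libraries of H1 cells, 1 library each, with 95% Poisson intervals of the reads as bars. The control values lie between 0.107 and 0.144 RPKM, and the knockdown values are 1.95 for RHOXF1 and 18.5 and 18.4 for RHOXF2 and RHOXF2B.

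Per length of the entry, the 3 genes could not be ordered in the control. RHOXF2 stood at 0.741 times the RPKM of RHOXF1 there (interval 0.312 to 1.80), and RHOXF2B at 0.839 times (0.366 to 2.00), so both intervals include equality. In the knockdown the order was clear at this depth, with RHOXF2 at 9.51 times RHOXF1 (8.00 to 11.4) and RHOXF2B at 9.45 times (7.95 to 11.3). The copies thus stood well above RHOXF1 after knockdown, from control levels that counting error does not separate.

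RHOXF2 and RHOXF2B could not be told apart in either library. Their reads differed by 2 in the control and by 6 in the knockdown, and RHOXF2 stood at 1.01 times the RPKM of RHOXF2B in the knockdown (0.949 to 1.07). Other near-identical copies in the same table also carried matching reads: CTAG1A and CTAG1B, 2 copies of a cancer-testis antigen gene, each had 5 reads in the control and 796 in the knockdown. The sources used here do not say how a read that fits both copies was counted, so the values of RHOXF2 and RHOXF2B are uncertain one by one. The pair is best read as 1 measurement, and a sum of both may count the same reads more than once.

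Against the rest of the transcriptome, RHOXF2 and RHOXF2B moved from the near-silent to the moderately expressed genes. In the control, 15080 of 22060 gene symbols had a higher RPKM than RHOXF2 and 14931 a higher RPKM than RHOXF2B. In the knockdown these counts were 2598 and 2617. For RHOXF1 the count was 14694 in the control and 10025 in the knockdown, a level near the middle of the table. Even in the knockdown, RHOXF2 reached only 2.07% of the RPKM of POU5F1, and RHOXF1 0.218%.

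Differences across the table were set on the scale log2(RPKM + 0.5), which understates the change of genes with low values. On it, RHOXF2 differed by 4.97, RHOXF2B by 4.93 and RHOXF1 by 1.93 between knockdown and control. They ranked 12, 14 and 137 among the 13043 genes kept, counted from the highest. All 3 were past 2-fold higher (a log2 difference of at least 1), as were 4.37% of the 13043 genes, while 4.97% were past 2-fold lower. Each of the 3 passed the filter through its knockdown value alone, so a difference was bound to follow and the count of 3 supports nothing by itself.

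A background set by the control level alone is given by the 1713 genes with a control RPKM between 0.05 and 0.2, a range chosen after the RHOX values were seen. Of these, 62 (3.62%) had a knockdown RPKM of at least 1, and 9 (0.525%) had one of at least 10. RHOXF1 was among the 62, and RHOXF2 and RHOXF2B were among the 9. The other 7 were MAGEB2, CTAG2, MAGEA12, SLC25A3P1, CTAG1A, CTAG1B and MAEL, at 11.4 to 20.2 RPKM. MAGEB2, MAGEA12 and the CTAG genes are cancer-testis antigen genes, MAEL acts in the piRNA pathway of germ cells, and SLC25A3P1 is a pseudogene. These names were read off after their values were seen. In the same 1713 genes the RPKM ratio was at least 10 for 56 (3.27%) and at least 100 for 8 (0.467%).

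**Figure D2:**
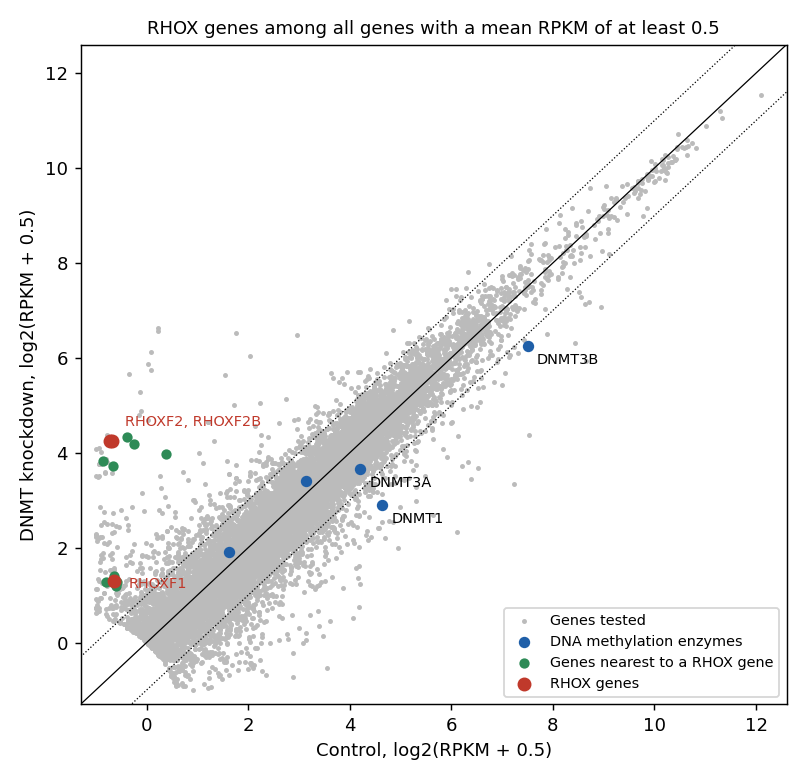
Each point is a gene of H1 cells whose RPKM averaged 0.5 or more, with log2(RPKM + 0.5) of the control on the x axis and of the DNMT knockdown on the y axis (1 library each). The solid line marks equality and the dotted lines a log2 difference of 1. RHOXF2 and RHOXF2B lie 4.97 and 4.93 above equality and RHOXF1 lies 1.93 above it, at the left edge where the control is near silent.

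The genes with the most similar pair of values were sought outside the gene lists, as those at the smallest distance over log2(RPKM + 0.5) in the 2 libraries. For RHOXF1 they were SCG2, a secretory granule protein (control 0.130 and knockdown 1.91 RPKM), the zinc finger gene ZNF560 (0.163 and 1.93), the lysophosphatidic acid receptor LPAR6 (0.159 and 1.80), C3orf72 (0.139 and 2.13) and HHLA1 (0.0724 and 1.92). Their distances ran from 0.039 to 0.17. RHOXF2 and RHOXF2B had the same 5 nearest genes, at distances of 0.30 to 1.14. These were PNMA5, of the paraneoplastic antigen family (0.260 and 19.6), KHDC3L, a component of the maternal complex of oocytes (0.0482 and 13.7), the alpha-tubulin gene TUBA3D (0.343 and 17.8), SLC25A3P1 (0.129 and 12.7) and the acyltransferase gene GPAT2 (0.806 and 15.3). Likeness over 2 libraries only says that these levels were close.

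Other homeobox genes of the PRD class mostly stayed near silent in both libraries. All 43 genes listed had an entry, of which 13 were at 0 in the control and 6 at 0 in the knockdown, and 4 passed the filter at 0.5 RPKM. Of these 4, 1 was past 2-fold higher and 0 past 2-fold lower, beside 4.37% and 4.97% of all genes kept, with a median log2 difference of 0.08. By any amount, 22 of the 43 were higher in the knockdown and 17 lower, beside 46.2% and 41% of all symbols. HESX1, a repressor of early forebrain and pituitary development, was the one past 2-fold. Its level was 1.86 RPKM in control cells and 7.48 after knockdown, a ratio of 4.02. OTX2, a factor of epiblast and head development, was at 21.2 and 11.3 RPKM and the photoreceptor factor CRX at 0.310 and 0.774. CRX passed the filter through its knockdown value alone. Below the filter, PRRX2 was lower in the knockdown, at 0.732 and 0.179 RPKM (98 and 22 reads). ESX1, the X-linked PRD gene of placenta and testis, had 0 reads in the control and 2 in the knockdown. The RHOXF2 level of 18.5 RPKM was above that of every PRD gene listed in the knockdown library, where OTX2 was the highest of them.

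Genes known to lie near the RHOX genes in band Xq24 were a separate list. Of 35 symbols listed, 32 had an entry and 23 passed the filter. Of these 23, 0 were past 2-fold higher and 1 past 2-fold lower, counts near the 4.37% and 4.97% of all genes kept. The median log2 difference was -0.06, beside 0.01 over all genes. The lower gene was AKAP14, which encodes an anchor of protein kinase A in cilia, with control and knockdown levels of 1.44 and 0.405 RPKM. NKAP, a transcriptional regulator, was at 10.3 and 7.16 RPKM, and ZBTB33, which encodes the methyl-CpG binding protein Kaiso, at 4.08 and 6.10. NDUFA1, a subunit of respiratory complex I, was at 73.0 and 68.8 RPKM. IL13RA1, an interleukin receptor chain, had the highest log2 difference of the 23, at 0.78 (2.69 and 4.97 RPKM), followed by CXorf56 at 0.64 (5.67 and 9.09 RPKM), and DOCK11 stood at -0.79 (2.00 and 0.948 RPKM). The 5 CT47 cancer-testis genes of the band that were listed had 0 reads in both libraries. How reads shared between copies were placed is unstated, so a level of 0 does not show that they are silent. Below the filter, TMEM255A had levels of 0.174 and 0.563 RPKM.

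The X-linked cancer-testis families listed apart from CT47, which like RHOX genes are germ line genes silenced elsewhere, were higher in the knockdown as well. Over all 22060 gene symbols, 46.2% were higher in the knockdown by any amount and 41% were lower. All 4 VCX genes were higher, from 1.79 RPKM summed over the family in the control to 215 in the knockdown. The 23 MAGE symbols stood on 22 distinct entries, since MAGEA2 and MAGEA2B share one. Of these entries, 20 were higher in the knockdown by any amount and 0 lower, and their sum went from 10.4 to 225 RPKM. The 42 GAGE, PAGE, XAGE, SSX and CTAG symbols stood on 35 distinct entries, of which 33 were higher and 0 lower, with sums of 2.12 and 172 RPKM. These families hold near-identical copies, for which the placing of reads is unstated as well. The log2 differences of the VCX genes ran from 5.40 (VCX3B) to 6.03 (VCX3A) on the scale of RPKM + 0.5, each above the value of RHOXF2. That order depends on the pseudocount. The plain RPKM ratios of the VCX genes ran from 91.2 (VCX3B) to 171 (VCX2), beside 173 (103 to 317) for RHOXF2. MAGEB2 (0.0791 and 20.2 RPKM) had values near those of RHOXF2.

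**Figure D3:**
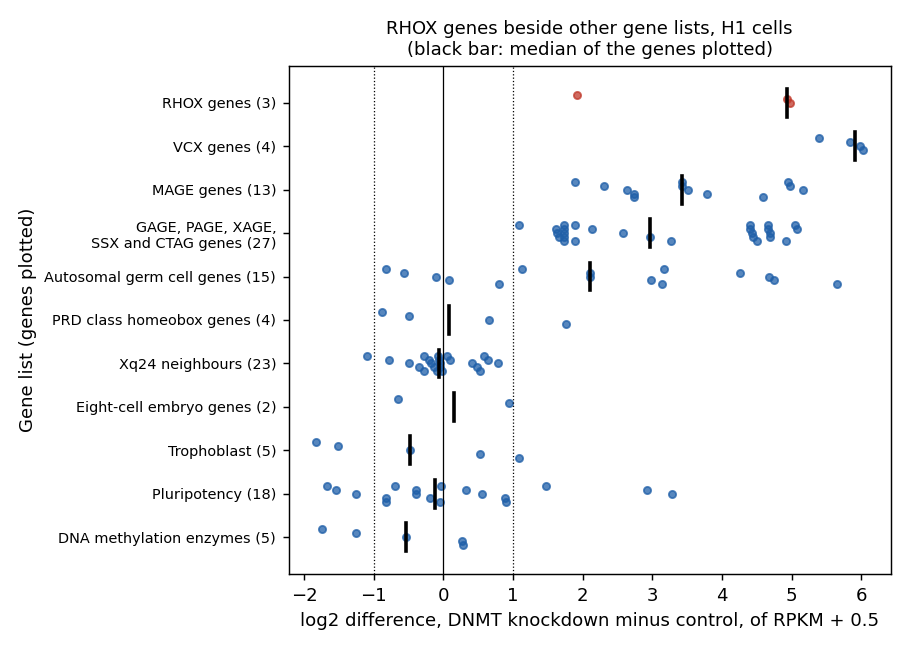
The log2 difference (DNMT knockdown minus control, RPKM + 0.5) of each gene whose RPKM averaged 0.5 or more, by gene list, with the median as a black bar and dotted lines at -1 and 1. The RHOX genes lie at 1.93, 4.93 and 4.97, below the VCX genes and within the spread of the other germ line lists. The genes near RHOX in Xq24 have a median of -0.06. The filter acts unequally on the lists. All 3 RHOX genes passed with a control RPKM under 0.5 and so had to be higher. So did 26 of 27 GAGE, PAGE, XAGE, SSX and CTAG genes, 10 of 13 MAGE, 2 of 4 VCX and 6 of 15 autosomal germ cell genes. Of the 23 Xq24 genes, 0 passed that way.

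Autosomal germ cell genes gave a mixed picture. Of 39 in the table, 29 were higher in the knockdown by any amount and 8 lower, beside 46.2% and 41% of all symbols, and their summed level went from 41.6 to 236 RPKM. Of the 15 that passed the filter, 6 had a control RPKM under 0.5 and, like the RHOX genes, passed through the knockdown value, so they had to differ. Of the other 9, with a control RPKM of at least 0.5, 4 were past 2-fold higher and 0 past 2-fold lower, where 2.93% of the 12675 genes with such a control level were higher. DPPA5, an RNA-binding protein of ES and germ cells, was at 0.555 and 52.7 RPKM, the germ cell RNA-binding factor DAZL at 2.90 and 91.2, the piRNA factor GTSF1 at 0.518 and 25.4, and MAEL at 0.126 and 11.4. Among the 8 lower genes, PRDM14 was at 22.1 and 12.3 RPKM and TDRD5 at 1.53 and 0.873. Below the filter, levels stayed under 1 RPKM but often differed between control and knockdown: the germ cell helicase DDX4 had 0.0321 and 0.763 RPKM, the tudor domain gene RNF17 0.00387 and 0.551, the bromodomain gene BRDT 0.0345 and 0.737, the meiotic gene HORMAD1 0.0157 and 0.330, and PIWIL1 0.00276 and 0.126. TEX14 was lower in the knockdown, at 0.383 and 0.186 RPKM, as was PIWIL4, at 0.145 and 0.101. STRA8 had 0 and 0.0653 RPKM and NANOS3 0.0314 and 0, while SPO11 and SYCE1 were at 0 in both libraries. These genes were picked after their values were seen. The part of germ cell markers in the RHOX values was not tested. In a bulk library, a high level in few cells and a low level in many cannot be told apart.

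Markers of the placenta, where RHOX genes are also known to be expressed, went both ways. Of 27 trophoblast genes in the table, 11 were higher in the knockdown by any amount and 7 lower, beside 46.2% and 41% of all symbols. The control had 10 of them at 0 and the knockdown 11, including the hormone subunit CGA in both. Their summed level went from 18.4 to 9.49 RPKM, and from 7.03 to 6.64 RPKM without KRT7. Of the 5 that passed the filter, 1 was past 2-fold higher and 2 past 2-fold lower, beside 4.37% and 4.97% of all genes kept. KRT7, a keratin of simple epithelia, had levels of 11.4 and 2.84 RPKM in control and knockdown, and the transcription factor TFAP2C was at 2.89 and 0.691. PAGE4, a placental and prostate member of a cancer-testis family, was at 0.844 and 2.35, PGF, a growth factor of the VEGF family, at 1.29 and 2.09, and GCM1, the regulator of syncytiotrophoblast, had 6 and 3 reads. TP63, a factor of basal epithelia and trophoblast progenitors, went from 2 to 49 reads, which is 0.00410 and 0.110 RPKM.

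Genes of the eight-cell embryo were low in both libraries, at most 1.31 RPKM. By any amount, 14 of the 23 were higher in the knockdown and 5 lower, beside 46.2% and 41% of all symbols. Of these 23, 2 passed the filter and 0 were past 2-fold on the scale of RPKM + 0.5, beside 4.37% higher and 4.97% lower of all genes kept. ZNF280A was at 0.441 and 1.31 RPKM and passed through its knockdown value alone. CCNA1 was at 0.843 and 0.358 and passed through its control value alone. Below the filter, KLF17 had 0 reads in the control and 39 in the knockdown, TPRX1 had 4 and 22, and SLC34A2 had 49 and 159. DUX4 and LEUTX had 0 reads in both libraries.

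Other lists moved in part. Of 18 pluripotency genes past the filter, 3 were past 2-fold higher and 3 past 2-fold lower, with a median log2 difference of -0.12. These counts stand beside 4.37% and 4.97% of all genes kept. DNMT3B, at 181 and 75.9 RPKM, was 1 of the 3 lower, and it belongs to the enzymes that the hairpins were against. L1TD1, at 80.3 and 223 RPKM, was 1 of the 3 higher. LEFTY1 and LEFTY2, inhibitors of NODAL, were at 2.78 and 31.4 RPKM and at 2.00 and 18.4, and the NODAL coreceptor TDGF1 was at 418 and 144 and the telomerase subunit TERT at 3.37 and 0.721. The LEFTY2 level in the knockdown was close to that of RHOXF2, although it started from a higher control level. Of the markers of other lineages, 0 of 5 neuroectoderm, 0 of 2 mesoderm and 1 of 8 fibroblast genes past the filter (THY1) were past 2-fold higher, and 1, 1 and 0 past 2-fold lower, beside 4.37% and 4.97% of all genes kept. Of 13 endoderm genes in the table, 2 passed the filter, of which 2 were past 2-fold higher and 0 lower. The other 11 averaged under 0.5 RPKM. By any amount, 11 of the 13 endoderm genes were higher and 0 lower, beside 46.2% and 41% of all symbols. By the same count, 8 neuroectoderm genes were higher and 7 lower, 7 mesoderm genes higher and 6 lower, and 8 fibroblast genes higher and 4 lower. CER1 was at 0.600 and 3.33 RPKM, and FOXA2 at 0.00816 and 1.24, which passed the filter through its knockdown value alone.

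The related mouse family was read in the mouse ES cell line ES3, in which the knockdown was of the zinc finger gene Gm6871 and not of DNA methyltransferases. Cells were taken 4 days after transduction with the empty vector or the hairpin, with 2 libraries per group. Of 42 Rhox genes and pseudogenes in the reference, 31 had an entry in the mouse table, 4 averaged 0.5 RPKM or more over the 4 libraries and 19 were at 0 in all 4 libraries. Rhox5, the founding member, was high, with 226 and 697 RPKM in controls 1 and 2 and 218 and 312 RPKM in knockdowns 1 and 2, so the groups overlapped. Rhox6 was at 4.79 and 4.75 RPKM against 6.68 and 3.45, and Rhox9 at 3.86 and 1.71 and at 4.31 and 1.67. Both genes are known from placenta and germ cells, and their groups overlapped as well. Rhox13, a gene of male germ cells, was at 1.61 and 0.936 RPKM and at 1.40 and 0.507, again with overlap. Of the 21 entries of the multicopy Rhox2, Rhox3 and Rhox4 genes, 18 were at 0 in all 4 libraries, and the highest value of the other 3 was 0.0338 RPKM. Where reads shared between these copies were placed is likewise unstated, so a level of 0 does not show that they are silent. No level was compared between the species.

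**Figure D4:**
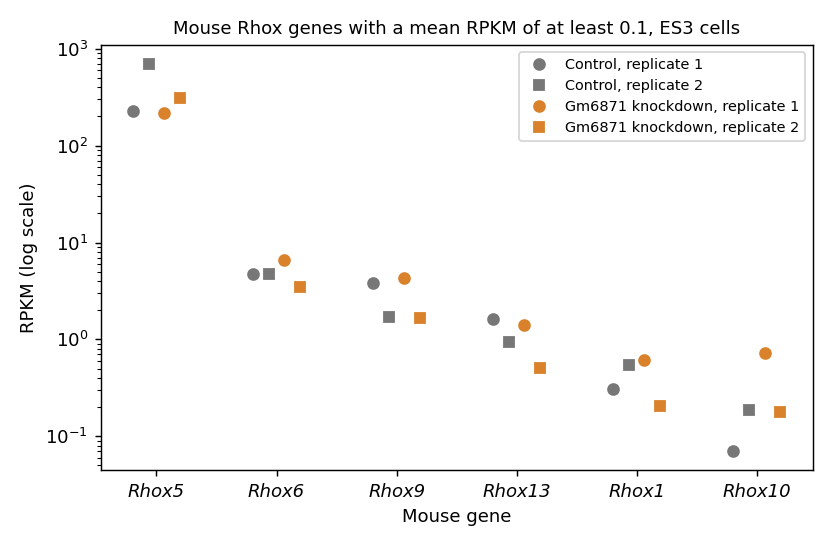
RPKM (log axis) of the mouse Rhox genes averaging 0.1 RPKM or more, in each of the 4 ES3 libraries, 2 controls and 2 Gm6871 knockdowns. Rhox5 lies between 218 and 697 RPKM, far above Rhox6 at 3.45 to 6.68, and the controls and knockdowns overlap for Rhox5, Rhox6, Rhox9 and Rhox13.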

How the data were processed

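Cytoplasmic poly(A) RNA was sequenced, per the labels' protocols. The authors deposited RPKM values per RefSeq entry and per L1 copy. The submitters' processing notes name Bowtie 0.12.5 with hg19 and mm9. The sources used here do not state the annotation, counter or strand handling. Read numbers were recovered from RPKM: 1 total per library made the values of 100% of 9840 L1 copies whole within 0.01 reads, and the smallest entry length up to 30000 bp giving whole reads in both libraries was taken. That length can be a divisor of the true one, so reads can be understated and intervals too wide. The step was tested on simulated data.

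The highest entry per symbol was kept (36865 entries, 22060 symbols), and differences used a pseudocount of 0.5 and genes averaging 0.5 RPKM or more. Intervals are exact, at 95%, and cover counting error only, since each human group has 1 library. Reads carry no molecular identifiers, so repeated copies of the same molecule cannot be told apart and the intervals can be too narrow. With 1 human library per group no test was possible. The members and gene lists were chosen with earlier results of these data known. From each list the 4 genes with the largest difference were named, with fixed DNMT and ES cell genes and the 5 genes nearest to each member; others were picked after their values were seen, and 1 gene the rule names is not reported here. Mouse symbols came from a GRCm38.p6 table (27888 of 36083 entries matched). Python 3.11.15, numpy 2.4.6, pandas 2.3.3 and scipy 1.17.1 were used.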

Additional observations from a re-analysis of the deposited data

How the results depend on the processing

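None of the RHOX differences changed direction under the alternatives run, and all 3 genes stayed past 2-fold in each. The direction could not change with the pseudocount, the filter or the summing, since each knockdown value is above its control value. The size depended on the pseudocount: with 0.1 the log2 difference was 3.07 for RHOXF1, 6.49 for RHOXF2 and 6.39 for RHOXF2B, with 1 it was 1.37, 4.14 and 4.11, and with none, a setting chosen after seeing the data, 3.75, 7.44 and 7.25. RHOXF2 and RHOXF2B summed gave 5.68. Centring moved the differences by less than the counting error. Other filters and the mean over entries could not change them, since each RHOX gene has 1 entry and passes every filter, so these settings are no check on the RHOX values. Genes past 2-fold numbered 570 higher and 648 lower, and 433 to 783 and 439 to 885 under the alternatives. Of 168 recomputed list counts, 160 stayed within 1.5 times. With a pseudocount of 0.1, 2 PRD class genes were higher, and 1 eight-cell gene was higher and 1 lower. With a pseudocount of 1, 0 Xq24 genes were lower and 0 trophoblast genes higher. With a filter at a mean RPKM of 1, 0 Xq24 genes were lower and 1 endoderm gene was higher. At that filter 16 GAGE, PAGE, XAGE, SSX and CTAG symbols were past 2-fold higher. At the main filter these were 27 of the 27 kept, beside 4.37% of all genes kept. Of the 27, 26 passed with a control RPKM under 0.5, so they had to be higher. The counts are of symbols, and some symbols share an entry. L1 copies near the RHOX genes were not analysed here, since no gene positions of the build were used. No paired analysis was possible because each human group has 1 library, and the mouse values come from no test. The control levels rest on 11 to 16 reads per RHOX gene, which sets the width of the ratio intervals.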
